A study of Homo sapiens with 4 samples.

Results

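Solute carriers (SLC) are membrane proteins that move nutrients, ions, metals and metabolites across the plasma membrane and the membranes of organelles, each family being named by a number after SLC. The genes described here are those whose symbol begins with SLC and a family number, or with SLCO, and whose expression level reached 1 FPKM, the number of sequenced fragments scaled to transcript length and to library size and summed over the transcripts of the gene, in at least 1 of the RNA libraries. This rule found 177 genes of 379 SLC symbols in the files, among 11018 genes that reached the same level and 23287 gene symbols in all. A further 67 SLC symbols were listed at 0 in both libraries, and 0 of 12 SLCO genes, the organic anion transporters, were retained. The genes were thus chosen by their measured levels, which are given as a description, and 13 of the 177 passed in 1 library only, 9 in EtOH and 4 in R5020, and had to differ for that reason. The genes just inside the limit were SLC24A6 (1.04 FPKM in EtOH and 0.710 in R5020), SLC25A22 (1.07 and 0.937) and SLC35B4 (1.11 and 1.01), and just outside it were SLC26A1 (0.933 and 0.600), SLC8A2 (0.401 and 0.952) and SLC25A42 (0.956 and 0.671). Of the 177, 6 carry an SLC symbol but are not transporters, among them the scaffold proteins SLC9A3R1 and SLC9A3R2.

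T47D is an established human luminal breast cancer cell line that expresses the progesterone receptor (PR), the nuclear receptor through which progestins act on transcription. RNA was sequenced from cells kept in 10 nM of the synthetic progestin R5020 for 3 h and from cells kept in its vehicle, ethanol (EtOH), with 1 library per condition, and PR-bound DNA was sequenced from cells kept in 10 nM R5020 for 1 h, again as 1 library. All cells were put in hormone-depleted serum beforehand, by the paper's methods for longer before the ChIP than before the RNA harvest. With 1 library per condition no value below has a replicate check, no p-value is given and every difference compares these libraries.

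Most solute carriers are either secondary active transporters, which use the gradient of another ion, or facilitators, which let a substrate run down its own gradient. Amino acid, sugar and vitamin carriers at the cell surface supply growth, zinc and iron carriers set the metal content of the cytosol, the SLC25 family links the mitochondrial matrix to the cytosol, and the SLC35 family brings nucleotide sugars into the Golgi and endoplasmic reticulum for glycosylation. In the mammary gland such carriers feed the synthesis of milk components.

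The depth behind the RNA values, taken as coverage times transcript length over a read length of 50 nt, was 36203604 reads in R5020 and 35151493 in EtOH. Among the solute carriers it ranged from 109 to 40306 reads per gene in EtOH and from 62.7 to 31506 in R5020. Of 9 luminal markers, 7 lay between 17.2 and 608 FPKM in EtOH, and PGR, which encodes PR, was at 23.7 FPKM in EtOH and 15.3 in R5020. The keratins KRT8 and KRT18 were listed at 0 in EtOH with a failed estimate and at 285 and 174 FPKM in R5020, whereas no solute carrier transcript in use had a failed estimate. Of 8 markers of other cells, 6 were under 1 FPKM in both libraries, COL1A2 and DES being listed at 0, and COL1A1 (5.12 and 3.31 FPKM in EtOH and R5020) and ACTA2 (1.93 and 1.35) were above it. The part of other cells in the values was not tested, and in bulk RNA fewer cells of a type and less RNA per cell cannot be told apart.

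In the vehicle the median level of the 177 genes was 4.40 FPKM, beside 5.09 over all retained genes, and 45 of them reached 10 FPKM. The highest was SLC40A1 (126 FPKM), ferroportin, the exporter of iron from cells. SLC25A3 (91.4 FPKM), the mitochondrial phosphate carrier, followed. The ADP/ATP carriers SLC25A6 (49.2 FPKM) and SLC25A5 (36.8 FPKM), which exchange ATP made in the matrix for cytosolic ADP, were also among the 10 highest. SLC7A5 (37.2 FPKM), a carrier of large neutral amino acids, and SLC3A2 (37.1 FPKM), the heavy chain it pairs with, stood at nearly one level. The rest of the 10 were the scaffold SLC9A3R1 (48.7 FPKM), the zinc importer SLC39A1 (41.5 FPKM), the choline transporter-like SLC44A2 (38.9 FPKM) and the mitochondrial carrier SLC25A16 (38.4 FPKM). After R5020 SLC25A3 was first at 96.0 FPKM, SLC38A2 second at 70.5 FPKM and SLC40A1 sixth at 41.0 FPKM.

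**Figure D1:**
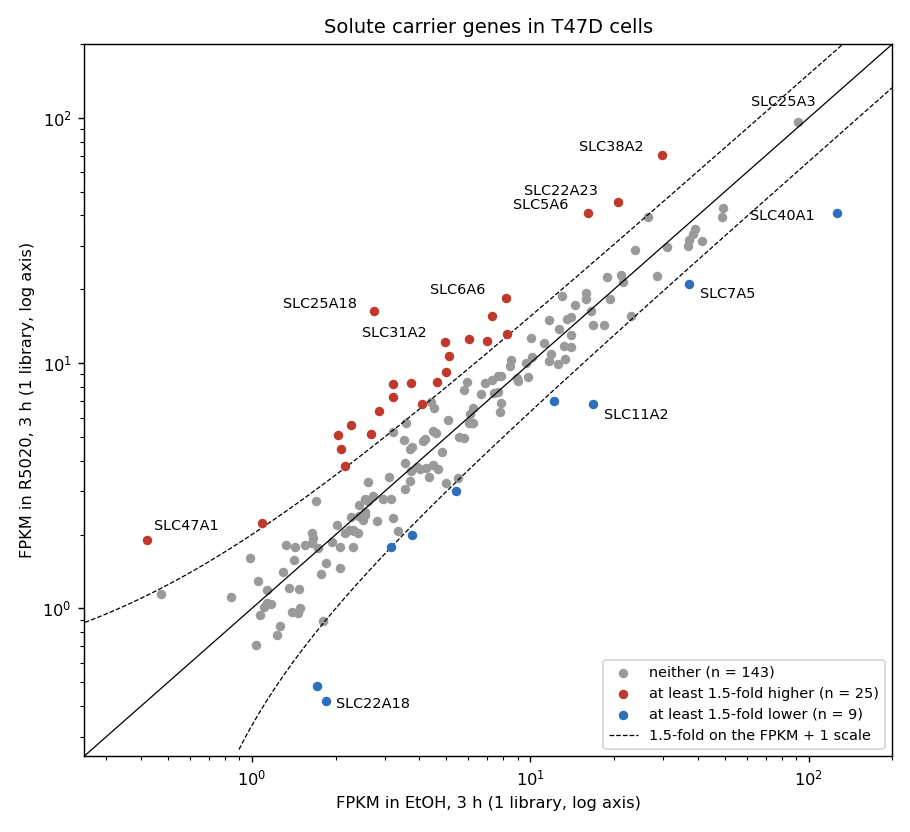
Level of each of the 177 solute carrier genes in EtOH (horizontal, FPKM, log axis) and in R5020 (vertical, FPKM, log axis), 1 library per condition, so there are no error bars. Red points (25) and blue points (9) lie outside the dashed 1.5-fold lines, and SLC40A1, at 126 FPKM in EtOH and 41.0 in R5020, is the blue point farthest to the right.

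The change of a gene was the log2 ratio of its R5020 to its EtOH level after 1 FPKM had been added to each, a scale that understates the change of weakly expressed genes, and a gene was counted as higher or lower at 1.5-fold on it. On this scale 25 of the 177 solute carriers (14.1%) were higher in R5020, beside 7.67% of all retained genes. Lower were 9 (5.08%), beside 4.14% of all retained genes, and 143 were neither. Among the 164 solute carriers that reached 1 FPKM in both libraries, 24 (14.6%) were higher, beside 6.47% of all genes that did so, and 7 (4.27%) were lower, beside 2.92%. At 2-fold 11 were higher, beside 3.43%, and 2 were lower, beside 1.31%. The median log2 change was 0.02 over the 177, 0.01 over all retained genes, and single genes ranged from -1.60 to 2.21. Thus most solute carriers differed little between the libraries, and the higher ones outnumbered the lower ones.

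**Figure D2:**
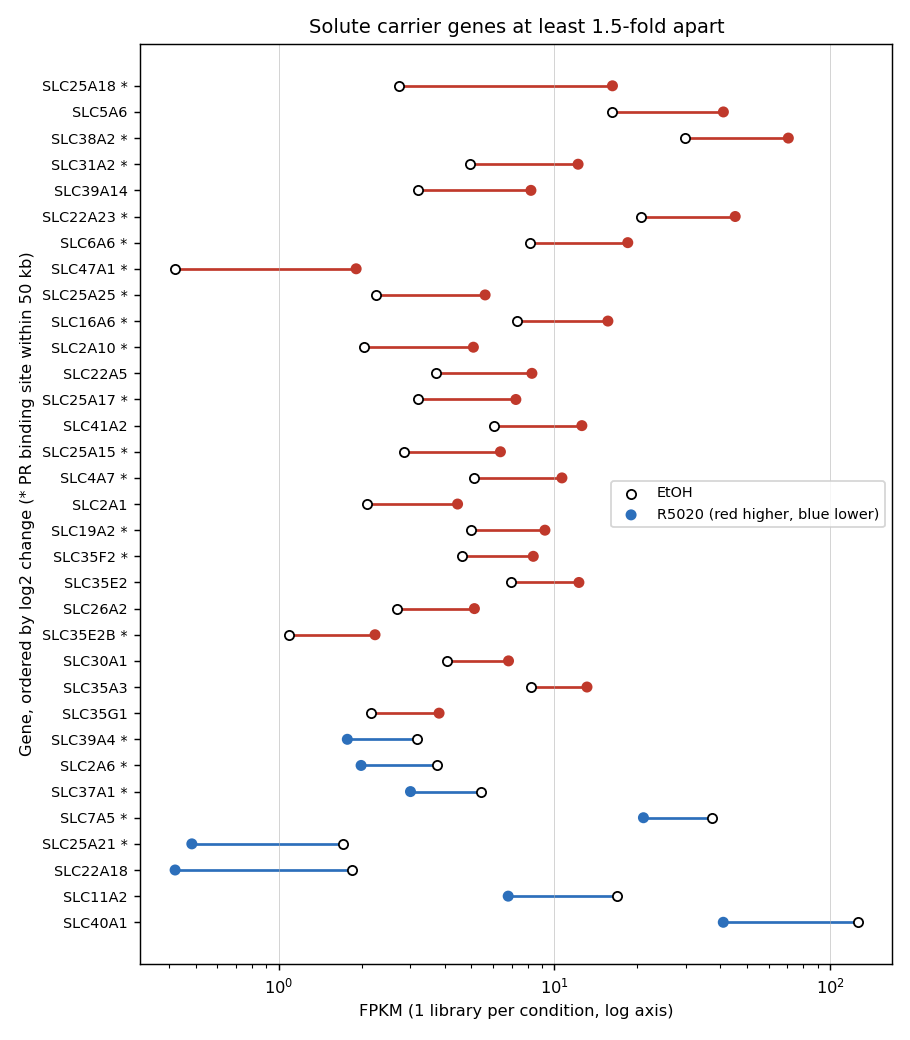
Level in EtOH (open circles) and in R5020 (filled circles) of 33 of the 34 solute carrier genes at least 1.5-fold apart, in FPKM on a log axis, 1 library per condition, ordered by log2 change. Asterisks mark a PR binding site within 50 kb, and SLC25A18, at 2.73 FPKM in EtOH and 16.2 in R5020, heads the list while SLC40A1 ends it.

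PR binding sites were the 11181 regions deposited for the ChIP-seq library, each with a MACS score, 10 times the −log10 of its p-value, between 50 and 1965 with a median of 74.5. A gene was tied to a site whose nearest edge lay in the gene or within 50 kb of it. Of the 177 solute carriers 107 had such a site (60.5%), beside 52.7% of all retained genes, and 58 (32.8%) had one inside the gene, beside 22.5%. The solute carrier loci had a median extent of 28.7 kb and all retained genes one of 26.9 kb. The part of gene length in these shares was not tested. The sites were spread unevenly over the genome, with 938 on chromosome 17, where 15 of 16 solute carriers had one, and 304 on chromosome 2, where 2 of 11 had one. The sites were mapped after 1 h and the RNA after 3 h of R5020.

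The counts of each substrate class below stand beside 7.67% higher, 4.14% lower and 52.7% with a PR site over all retained genes. Carriers of amino acids and peptides numbered 23, of which 2 were higher, 1 was lower and 20 were neither. Their median log2 change was 0.16, and 15 of them had a PR site. Their summed level was 244 FPKM in EtOH and 303 FPKM in R5020. SLC38A2, the sodium-coupled carrier of small neutral amino acids such as glutamine and alanine (chr12:46751971-46766645 in hg19), was at 29.9 FPKM in EtOH and 70.5 FPKM in R5020, a log2 change of 1.21. No other solute carrier gained as many FPKM. SLC6A6, which takes up taurine (chr3:14444106-14530857), was at 8.15 FPKM in EtOH and 18.5 FPKM in R5020, a log2 change of 1.09. SLC7A5 (chr16:87863629-87903100) went the other way, with 37.2 FPKM in EtOH and 21.0 FPKM in R5020, a log2 change of -0.80. Its partner chain SLC3A2 was at 37.1 and 31.8 FPKM, a log2 change of -0.21, so the levels that were alike in EtOH differed in R5020.

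The full palindromic element of this receptor class was searched in the central 300 bases of each site. It was spelled as GNACA and TGTNC with any 3 bases between them, and only exact matches were counted. Of 62 sites at the changed solute carriers 2 held it (3.23%), beside 1.88% of all sites, namely at SLC38A2 and SLC6A6. At SLC38A2 that site lay 16.2 kb outside the gene, upstream, with a score of 69.5, and a second upstream site 12.6 kb from the gene had a score of 125 and no match. SLC6A6 had 10 sites, with scores from 51.8 to 398. The one with the match lay 22.8 kb upstream with a score of 142. The one with the score of 398 lay in an intron 20.6 kb from the first base of the gene and held no exact match. These windows are shown so that the element can be seen in its setting beside a stronger site without an exact match. The intron window does hold a near match, agacagtgtgtcc, which differs from the element in its first base only. The sequences are those of the plus strand of GRCh37, the assembly of hg19, at chr12:46782955-46783254, chr3:14420962-14421261 and chr3:14464584-14464883, with the match in capitals.
SLC38A2 upstream site: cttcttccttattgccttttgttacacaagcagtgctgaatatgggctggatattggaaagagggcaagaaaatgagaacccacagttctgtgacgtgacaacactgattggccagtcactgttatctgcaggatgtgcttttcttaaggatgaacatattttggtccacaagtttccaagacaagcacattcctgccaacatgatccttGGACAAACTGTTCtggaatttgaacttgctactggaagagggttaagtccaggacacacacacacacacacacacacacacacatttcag
SLC6A6 upstream site: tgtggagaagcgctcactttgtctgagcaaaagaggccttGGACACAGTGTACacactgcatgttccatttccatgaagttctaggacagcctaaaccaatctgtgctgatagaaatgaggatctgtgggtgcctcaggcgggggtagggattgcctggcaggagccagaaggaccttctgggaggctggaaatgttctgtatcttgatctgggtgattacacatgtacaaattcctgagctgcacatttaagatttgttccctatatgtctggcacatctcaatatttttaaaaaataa
SLC6A6 intron site: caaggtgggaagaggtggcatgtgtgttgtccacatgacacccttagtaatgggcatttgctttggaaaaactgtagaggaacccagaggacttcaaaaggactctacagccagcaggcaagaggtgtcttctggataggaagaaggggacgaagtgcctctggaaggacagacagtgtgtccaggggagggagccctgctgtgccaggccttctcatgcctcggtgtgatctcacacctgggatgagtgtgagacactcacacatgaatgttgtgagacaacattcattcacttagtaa

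Metal and haem carriers numbered 25, of which 4 were higher, 3 lower and 18 neither, with a median log2 change of 0.10. A PR site was found for 9 of them, beside 52.7% of all retained genes. Their summed level was 357 FPKM in EtOH and 281 FPKM in R5020, with the largest single difference at SLC40A1. SLC40A1 (chr2:190425316-190445537) was at 126 FPKM in EtOH and 41.0 FPKM in R5020, a log2 change of -1.60. SLC11A2, the DMT1 importer of ferrous iron (chr12:51373566-51422058), was at 16.8 FPKM in EtOH and 6.80 FPKM in R5020, a log2 change of -1.19. SLC40A1 and SLC11A2 were thus the 2 solute carriers with the lowest log2 changes, and neither had a PR site within 50 kb. The nearest lay 903 kb from SLC40A1 and 141 kb from SLC11A2. SLC39A14, which also imports iron, went the other way, at 3.21 and 8.22 FPKM in EtOH and R5020 (log2 change 1.13). Iron genes outside the solute carriers differed less. The transferrin receptor TFRC was at 138 and 148 FPKM and the ferritin heavy chain FTH1 at 406 and 386 FPKM. The ferritin light chain FTL was at 22.4 and 13.5 FPKM, a log2 change of -0.69.

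Among the zinc, copper and magnesium carriers, with SLC39A14 counted here, 4 were higher and 1 was lower. SLC31A2, the CTR2 copper transporter (chr9:115913238-115926422), was at 4.94 FPKM in EtOH and 12.2 FPKM in R5020, a log2 change of 1.15, while its family mate SLC31A1, the main copper importer at the cell surface, was at 10.1 and 10.6 FPKM. SLC39A14, which imports zinc, iron and manganese, was at 3.21 and 8.22 FPKM (log2 change 1.13), and its nearest site lay 139 kb away. SLC41A2, a magnesium transporter, was at 6.03 and 12.6 FPKM (0.95), and SLC30A1, which exports zinc through the plasma membrane, at 4.08 and 6.82 FPKM (0.62). SLC39A4, a zinc importer, was lower, at 3.17 FPKM in EtOH and 1.77 FPKM in R5020, a log2 change of -0.59. It had 5 sites, with scores from 51.7 to 94.4, in a gene-dense stretch where each site was also within 50 kb of 4 to 6 other retained genes. The zinc importer of the highest level, SLC39A1, was at 41.5 and 31.5 FPKM and not past 1.5-fold.

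SLC31A2 had a site with a score of 453, ranked 63 among all sites, 11.1 kb upstream in sequence between genes, and it is shown as the strongest site near a changed metal carrier. The window at chr9:115901655-115901954, plus strand of GRCh37, held no exact match to the full element. Within 50 kb of the site lay 1 other retained gene, which was not changed.
SLC31A2 upstream site: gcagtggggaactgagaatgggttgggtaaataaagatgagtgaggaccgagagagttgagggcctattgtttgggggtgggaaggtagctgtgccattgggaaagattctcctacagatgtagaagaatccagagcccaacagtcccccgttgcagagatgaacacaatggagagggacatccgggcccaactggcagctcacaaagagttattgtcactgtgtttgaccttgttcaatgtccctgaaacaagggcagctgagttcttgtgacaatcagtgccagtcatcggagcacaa

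Mitochondrial carriers were the largest class, with 36 genes of the 46 symbols of the SLC25 family. Higher were 4, lower was 1 and neither were 31, with a median log2 change of -0.01. A PR site was found for 19, beside 52.7% of all retained genes. Their summed level was 399 FPKM in EtOH and 416 FPKM in R5020. The carriers of oxidative phosphorylation were among the 31, since SLC25A3 was at 91.4 and 96.0 FPKM, SLC25A5 at 36.8 and 30.0 FPKM and SLC25A6 at 49.2 and 42.8 FPKM. SLC25A18, which carries glutamate into the matrix (chr22:18043183-18073647), had the largest log2 change of the 177 genes, 2.21, with 2.73 FPKM in EtOH and 16.2 FPKM in R5020. About 543 reads in EtOH and 3129 reads in R5020 lay behind these values.

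All 5 changed mitochondrial carriers had a site within 50 kb, beside 61.4% of all higher and 61.0% of all lower retained genes. These 5 differ in substrate. SLC25A25, which exchanges ATP-Mg for phosphate under the control of calcium, was at 2.26 and 5.61 FPKM (log2 change 1.02). SLC25A17, a member of the family that sits in the peroxisome and carries cofactors such as coenzyme A, was at 3.21 and 7.25 FPKM (0.97), with a site of score 343 at 36.3 kb. SLC25A15, the ornithine carrier of the urea cycle, was at 2.85 and 6.37 FPKM (0.94), with a weak site of score 57.7 at 41.1 kb, inside MRPS31. SLC25A21, the oxodicarboxylate carrier of lysine and tryptophan breakdown, was lower, at 1.71 FPKM in EtOH and 0.484 FPKM in R5020 (log2 change -0.87). It passed the limit of 1 FPKM in EtOH only. Its locus overlaps LOC100129794, which was at 1.79 and 1.74 FPKM. Its only site, with a score of 50.6 where the lowest of all sites is 50, lies in PAX9, which was itself lower.

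The site at SLC25A18 had a score of 148 and lay in an intron 8.08 kb from the first base of the gene. Within 50 kb of it lay 2 other retained genes, of which CECR2 was also higher. It is shown because it belongs to the gene with the largest change. The window at chr22:18051118-18051417, plus strand of GRCh37, held no exact match to the full element. It does hold a near match, ggacaatctgtgg, which differs from the element in its last base only.
SLC25A18 intron site: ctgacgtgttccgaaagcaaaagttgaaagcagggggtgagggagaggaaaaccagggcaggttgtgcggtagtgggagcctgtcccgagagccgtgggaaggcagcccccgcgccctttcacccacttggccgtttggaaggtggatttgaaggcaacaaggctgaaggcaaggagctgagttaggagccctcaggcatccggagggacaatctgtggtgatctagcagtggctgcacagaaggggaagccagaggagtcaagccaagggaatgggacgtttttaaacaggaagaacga

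Carriers of monocarboxylates and organic ions numbered 14, and 4 were higher, 1 lower and 9 neither, with a median log2 change of 0.09. Their summed level was 51.8 FPKM in EtOH and 87.1 FPKM in R5020. SLC22A23, an orphan member of the organic ion family, was at 20.7 FPKM in EtOH and 45.2 FPKM in R5020, a log2 change of 1.09, with 4 sites of score 54.3 to 83.7. SLC22A5, the OCTN2 carrier of carnitine, was at 3.73 and 8.29 FPKM (0.97), and its nearest site lay 52.4 kb away, just past the limit of 50 kb. SLC16A6, a monocarboxylate carrier, was at 7.29 and 15.6 FPKM (1.0), although ARSG on the opposite strand of the same locus was at 2.42 and 3.69 FPKM and use of strand in the counting is not given in the sources used here. SLC47A1, the MATE1 exporter of organic cations, was at 0.419 FPKM in EtOH and 1.91 FPKM in R5020 (1.04), and passed the limit of 1 FPKM in R5020 only. SLC22A18, an imprinted gene of uncertain substrate, was lower, at 1.84 and 0.421 FPKM (-1.0), and passed in EtOH only.

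Of 21 genes classed as nucleotide sugar and acetyl-CoA carriers 5 were higher, 0 lower and 16 neither, with a median log2 change of 0.05. The class follows the family number and does not give the substrate of each gene. SLC35F2, which has no settled sugar substrate, was at 4.62 and 8.38 FPKM in EtOH and R5020 (log2 change 0.74). SLC35A3, which brings UDP-N-acetylglucosamine into the Golgi, was at 8.22 and 13.1 FPKM (0.61), with the nearest site 4594 kb away. SLC35G1 was at 2.17 and 3.82 FPKM (0.61). SLC35E2 (6.98 and 12.3 FPKM, 0.73) and SLC35E2B (1.09 and 2.24 FPKM, 0.63) are near-identical copies, and reads that mapped more than once were left out. Their levels thus rest on reads that mapped to a single place. The sum of both was 8.07 and 14.5 FPKM, a log2 change of 0.77. SLC35E2B also overlaps CDK11B, which was at 3.29 and 3.14 FPKM. The highest of the class in EtOH, SLC35A4, was at 21.1 and 22.8 FPKM.

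Of 12 sugar and polyol carriers 2 were higher, 2 lower and 8 neither, with a median log2 change of -0.03, and the changes ran in both directions within the glucose transporter family. SLC2A10, or GLUT10, was at 2.03 FPKM in EtOH and 5.08 FPKM in R5020, a log2 change of 1.0, with a site of score 148 inside the gene. SLC2A1, or GLUT1, the basal glucose transporter of most cells, was at 2.09 and 4.45 FPKM (0.82), with the nearest site 353 kb away. Its locus overlaps FLJ32224, which was at 0.510 FPKM in EtOH and listed at 0 in R5020. SLC2A6, or GLUT6, was lower at 3.75 and 1.99 FPKM (-0.67) although 14 sites lay within 50 kb of it, one of them over its first base with a score of 78.4. SLC37A1, which exchanges glucose 6-phosphate for phosphate in the endoplasmic reticulum, was at 5.42 and 3.01 FPKM (-0.68). SLC50A1, the highest of the class in EtOH, was at 28.5 and 22.8 FPKM. The number of sites was thus largest, among the changed solute carriers, at a gene that was lower.

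Of 10 vitamin and choline carriers 2 were higher, 0 lower and 8 neither, with a median log2 change of -0.07. SLC5A6, the carrier of biotin and pantothenate (chr2:27422455-27435175), was at 16.2 FPKM in EtOH and 41.0 FPKM in R5020, a log2 change of 1.29, the second largest of all, with the nearest site 97.1 kb away. Its locus overlaps C2orf28, which was at 15.5 FPKM in EtOH and listed at 0 in R5020. The sum of both genes was 31.7 and 41.0 FPKM, a log2 change of 0.36, on a scale that weighs each read by transcript length. In reads, C2orf28 had about 1327 in EtOH and 0 in R5020, and SLC5A6 about 4810.5 and 11783.5. An exchange of reads between the overlapping genes was not tested. SLC19A2, a thiamine transporter (chr1:169433149-169455208), was at 5.00 and 9.24 FPKM, a log2 change of 0.77. The highest of the class, SLC44A2, was at 38.9 and 35.1 FPKM.

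SLC19A2 carried the site with the highest score at any solute carrier, 718, ranked 23 among all 11181. Its midpoint lay 0.072 kb from the first base of the gene, in the promoter, and 1 other retained gene, not changed, lay within 50 kb.

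Of 24 carriers of inorganic ions and pH 2 were higher, 1 lower and 21 neither, with a median log2 change of -0.07. SLC4A7, a sodium bicarbonate cotransporter that takes in base, was at 5.13 FPKM in EtOH and 10.6 FPKM in R5020, a log2 change of 0.93. SLC26A2, which takes up sulfate, was at 2.69 and 5.13 FPKM (0.73). The highest of the class in EtOH, SLC9A7, was at 16.7 and 14.3 FPKM. The remaining 12 genes, namely 2 nucleoside carriers, 3 fatty acid carriers, 1 lysosomal carrier and the 6 that are not transporters, were neither higher nor lower, and their highest members were SLC29A2 (8.47 and 9.73 FPKM), SLC27A4 (3.17 and 2.78 FPKM), SLC17A5 (2.55 and 2.47 FPKM) and SLC9A3R1 (48.7 and 39.5 FPKM).

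**Figure D3:**
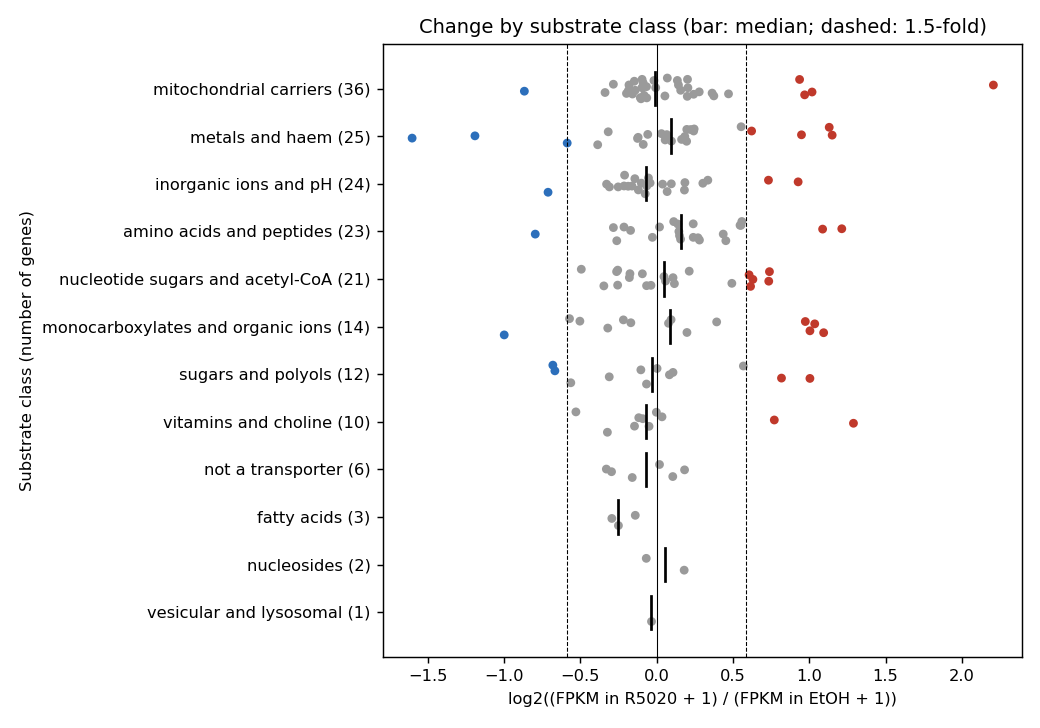
Log2 change of each of the 177 solute carrier genes by substrate class, with the number of genes in parentheses and black bars at the class medians, which lie between -0.25 and 0.16. Red points (25) lie to the right and blue points (9) to the left of the dashed 1.5-fold lines, and the classes overlap over most of their range.

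A PR site within 50 kb was about as frequent at the changed as at the unchanged solute carriers. It was found for 15 of the 25 higher genes (60.0%, beside 61.4% of all higher retained genes), for 5 of the 9 lower genes (55.6%, beside 61.0%) and for 87 of the 143 that were neither (60.8%, beside 51.5%). Inside the gene a site was found for 7 higher (28%, beside 34.6%), 4 lower (44.4%, beside 25.9%) and 47 of the others (32.9%, beside 21.3%). At 100 kb the shares were 84.0% for the higher, 77.8% for the lower and 65.0% for the others, beside 70.8%, 75.2% and 63.3% of the retained genes of the same kinds. With 9 lower genes each gene moves a share by 11.1 percentage points.

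**Figure D4:**
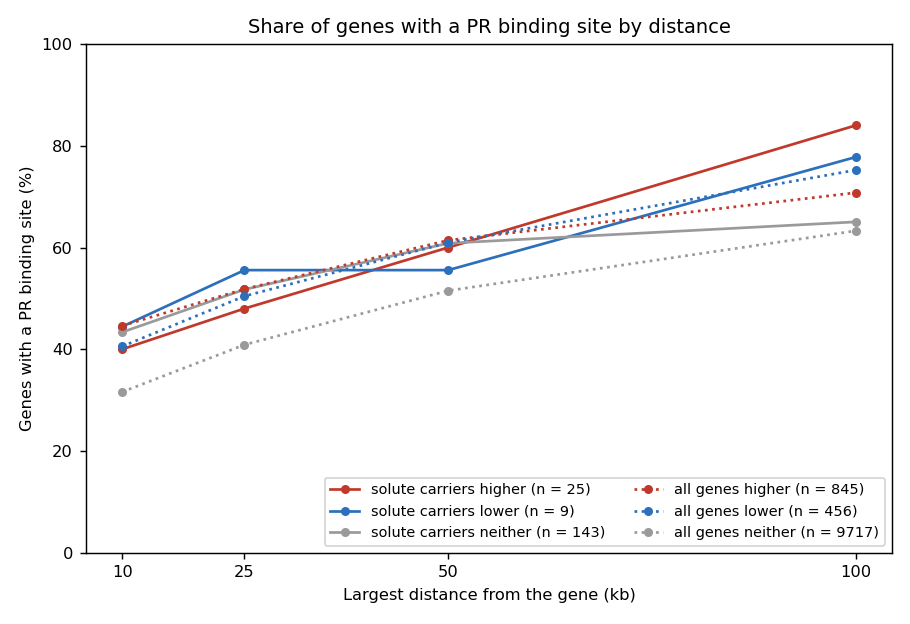
Percentage of genes with a PR binding site in the gene or within 10, 25, 50 or 100 kb of it, for solute carriers (solid lines) and all retained genes (dotted lines), split into higher (red), lower (blue) and neither (grey), without error bars. At 50 kb the 3 solid lines lie between 55.6% and 60.8%, and at 100 kb the higher solute carriers reach 84.0%.

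Within 50 kb the presence of a site differed little between these groups, while the score of the best site was higher at the higher genes. Among genes with a site the median of the highest score was 124 for the 15 higher solute carriers, 84.9 for the 5 lower and 86.0 for the 87 others. Over all retained genes of these kinds it was 97.1, 85.5 and 85.4. A score of 100 or more within 50 kb was found for 8 of the 25 higher (32.0%, beside 28.9%), 1 of the 9 lower (11.1%, beside 19.1%) and 28 of the 143 others (19.6%, beside 17.1%). A score of 300 or more, a limit chosen after the scores were seen, was found for 4 of the 25 higher, SLC19A2, SLC31A2, SLC6A6 and SLC25A17 (16.0%, beside 6.04%), for 0 of the 9 lower (beside 1.32%) and for 0 of the 143 others (beside 1.38%). The best site of an unchanged solute carrier, at SLC25A22, had a score of 281, just under that limit. A score of 200 or more was found for 4 higher (16.0%, beside 8.52%), 0 lower (beside 2.41%) and 2 of the others (1.40%, beside 2.39%).

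**Figure D5:**
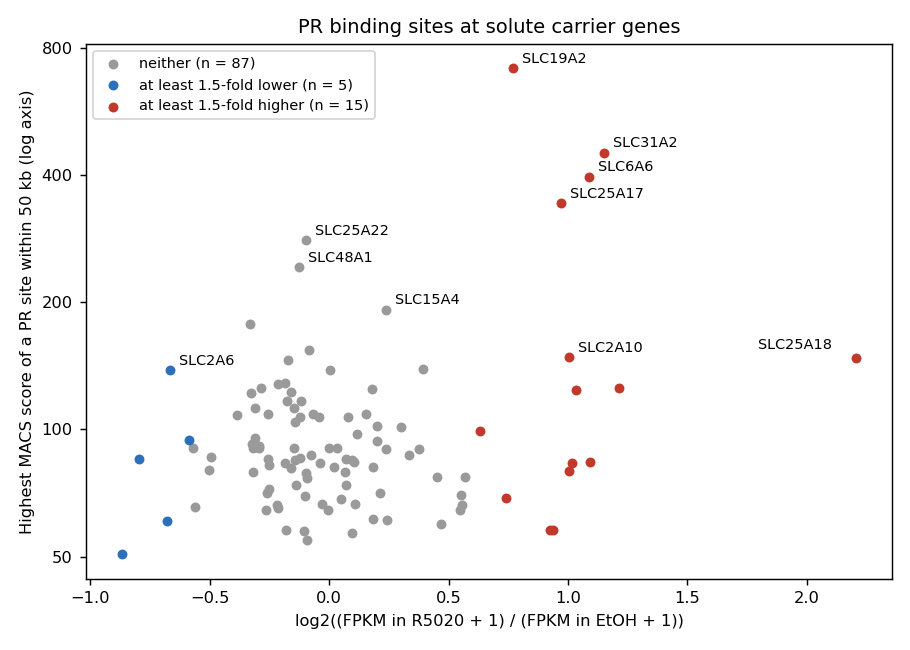
Highest MACS score of a PR binding site within 50 kb (vertical, log axis) against the log2 change of the gene (horizontal) for the 107 solute carriers with a site, 1 point per gene. The 4 points above a score of 300, a limit chosen after the scores were seen, are all red (SLC19A2, SLC31A2, SLC6A6 and SLC25A17). The blue points lie at or below the score of 138 of SLC2A6.

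In all, 329 sites lay at solute carriers, with a median score of 74.5, the same as over all sites. By their midpoint 122 lay in a promoter (within 1 kb of the start of a protein-coding gene), 41 in an exon, 91 in an intron and 75 between genes, and of the 62 at changed solute carriers 12, 9, 21 and 20 did so. The full element, which reads the same on both strands, was found in the central 300 bases of 9 of the 329 (2.74%), beside 1.88% of all sites and 0.492% of windows 5 kb away from the sites. Its shorter relative TGTTCT, which can lie within a full match, was found on either strand in 13.1% of the sites at solute carriers, in 17.7% of all sites and in 19.2% of the windows 5 kb away. TGTTTAC, the letters bound by forkhead factors, was found in 1.82%, 2.58% and 3.43% of these, respectively. The full element was thus more frequent at sites than beside them, and the shorter motifs were not.

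Transcripts of 1 gene did not always move together. Several retained transcripts were listed for 35 solute carriers and 1 for 141. SLC25A25 has transcripts with separate starts, and the longer one, beginning at 130830479 on chromosome 9, was at 1.80 FPKM in EtOH and 2.23 in R5020, whereas the one beginning at 130860817 was at 0.460 and 3.37 FPKM, a log2 change of 1.58. The change of this gene therefore lay mostly in the inner start. SLC11A2 had 4 retained transcripts, of which 3 were lower, among them one at 5.03 FPKM in EtOH and 0 in R5020, and 1 was listed at 0 in EtOH and 1.72 FPKM in R5020. Transcripts past 1.5-fold in opposite directions were listed for 9 genes, among them SLC11A2, SLC19A1, SLC25A1, SLC25A45, SLC30A6, SLC35C2, SLC37A2 and SLC9A3R2, and 8 of them had such a transcript at exactly 0 in 1 library, which can be a failed estimate. The exception was the zinc carrier SLC30A6, with 1 transcript at 2.61 and 1.25 FPKM and another at 1.15 and 3.30 FPKM, from 1 common start.

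Regulators and partners of the carriers were described from a list of 32 gene symbols that are not solute carriers. Of these, 23 were retained, with a median log2 change of 0.13. Higher were 5, beside 7.67% of all retained genes, lower was 1, beside 4.14%, and 17 were neither. A PR site within 50 kb was found for 11 of the 23, beside 52.7% of all retained genes. SGK1, a kinase that raises the surface level of ion and nutrient carriers, was at 0.0388 FPKM in EtOH and 3.28 FPKM in R5020. The ubiquitin ligases NEDD4L (6.11 and 12.6 FPKM, log2 change 0.93) and NEDD4 (4.68 and 7.54 FPKM, 0.59), which mark membrane carriers for removal, were higher as well. STK39, a kinase of cation-chloride cotransporters, was at 2.27 and 7.88 FPKM (1.44), and EZR, the linker between membrane proteins and the cytoskeleton, at 33.5 and 56.6 FPKM (0.74). The lower gene was FTL, given above. The arrestin TXNIP, which removes glucose transporters from the surface, was at 9.19 and 9.97 FPKM, and hexokinases HK1 (20.2 and 22.2 FPKM) and HK2 (3.04 and 4.56 FPKM) were not past 1.5-fold.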

How the data were processed

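For the RNA libraries the authors used TopHat to align 50-nt paired-end reads to hg19, left out reads that mapped more than once and deposited, per RefSeq transcript, FPKM estimated by Cufflinks, with coverage as a signal that is not scaled. The paper's methods section cites Ensembl as the annotation, whereas the deposited identifiers are those of RefSeq. For the ChIP library the authors aligned reads with Bowtie 1.1.2 and deposited the MACS score of each PR binding site, called against input DNA, which was not analysed here. Samples were grouped by their labels, and doses and times follow the methods of the paper.

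Here the FPKM of 41138 transcripts was summed by gene symbol, retained at 1 FPKM in either library and compared with a pseudocount of 1 and a threshold of 1.5-fold. Coverage gave the depth only, and the deposited FPKM intervals were not used. Distances run from any transcript extent to the nearest edge of a site. Annotation was by GENCODE release 44 on GRCh37 and site sequences are from GRCh37. Substrate classes follow the family number with single exceptions. Members and lists were chosen with earlier results of these data known. Genes named are all those past 1.5-fold, the 10 highest in EtOH, the highest of each class, those next to the limit of 1 FPKM and those with opposed transcripts. Sequences of the highest-scoring site were read for up to 8 changed genes, of which a few are printed. Family mates, overlapping genes, sites with a full element and the site of SLC19A2 were chosen after their values were seen. Some results under this rule are not reported here. The scripts were tested on simulated data. Python 3.11.15, pandas 2.3.3, numpy 2.4.6, pysam 0.24.0 and matplotlib 3.10.9 were used. The alternatives tried were another pseudocount, other filters, a rescaling, the highest transcript, a threshold of 2-fold, other distances, stricter sites and whole sites.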

Additional observations from a re-analysis of the deposited data

How the results depend on the processing

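A threshold of 2-fold left 11 higher and 2 lower solute carriers in place of 25 and 9, beside 3.43% and 1.31% of all retained genes, and a pseudocount of 0.1 gave 14 lower, beside 7.14% of all retained genes at this setting, and 10 of the 14 had a PR site in place of 5 of 9, beside 59.0% of all lower retained genes. Sites with a score of 100 or more were within 50 kb of 37 solute carriers in place of 107 (beside 18.1% of all retained genes), of 8 higher ones in place of 15 (beside 28.9%) and of 1 lower one in place of 5 (beside 19.1%). Of the 58 such sites 2 held the full element (beside 4.83% of all such sites), in place of 9 of 329. Under the pseudocount of 0.1 and under a rescaling that set the median log2 ratio to 0, all 34 changed genes kept their direction and their side of the threshold. When each gene was read from its highest transcript, 32 did so, and SLC25A21 (-0.46) and SLC2A6 (-0.51) were no longer past it. Adding C2orf28 to SLC5A6, an alternative chosen after seeing the data, left 24 higher. No paired analysis was possible because there was 1 library per condition, and for the same reason no replicate could be left out. Genes with few reads, such as SLC47A1 and SLC22A18, are the least precise, and error between cultures cannot be estimated.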
